A study of Mus musculus with 74 samples.

Results

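The comparison described here set the late arrays of the S2WT cells, titled 2 h and 4 h, against the early arrays of the same cells, titled 0 h and 0.3 h. The arrays were chosen by title, which gave 6 late and 6 early arrays, or 12 of the 74 arrays of the series. Each array is a dual-channel mouse cDNA array of 8976 probes. By the labels, channel 1 held RNA of cells without TGF-β and channel 2 RNA of cells given TGF-β for the time in the title. On the 0 h arrays neither channel held treated RNA. The 0.3 h arrays already held TGF-β-treated RNA in channel 2, so the early side was not all untreated. The S2WT arrays titled 4 h name 2 h in their source labels for both channels, and both times lie on the late side. Another set of S2WT arrays, titled 1 h, lies on neither side and is given beside the results. The series holds 4 further sets of arrays at the same times: S3WT, S2KO, S3KO, and S2WT cells with U0126, an inhibitor of the kinase MEK. The titles of the last set read S2WT_vs_U0126, and which of their channels held U0126 is not stated here. The labels do not spell out the line names, and they give no cell type, TGF-β isoform or dose, passage, or number of clones behind a line.

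TGF-β binds a pair of receptor kinases on the cell surface, and the activated receptor phosphorylates Smad2 and Smad3. These then enter the nucleus with Smad4 and bind DNA together with other factors at target genes. In fibroblasts and epithelial cells the first targets include inhibitors of the pathway itself, such as Smad7 and Skil, and regulators of transcription such as Snai1. Later targets include growth factors, matrix proteins and components of the cytoskeleton.

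Each value below is a log2 ratio of the channels, less the median of its array, so 0 is the median probe. The direction was taken as channel 2 over channel 1, which makes a positive value higher with TGF-β. This direction is likely and not certain, since the sources used here do not state it. Its basis is a list of genes known to be induced by TGF-β, of which 15 of 16 had a positive late minus early change. Over all probes 52.5% were positive, and without centring 13 of the 16 were. The list was chosen with earlier results of these data known, so it is not independent evidence of the direction. A change is the mean of the 2 h and 4 h groups minus the mean of the 0 h and 0.3 h groups, with the standard error (SE) of a fit over all 74 arrays. "Called" means an adjusted p under 0.05 by limma's moderated test with Benjamini-Hochberg adjustment over all probes tested. The late arrays each measured 8320 to 8595 probes and the early arrays 8141 to 8494. Channel intensities are not analysed here. The SE of a change reflects the number of arrays and the spread of its probe, pooled over 25 groups of all 74 arrays. It therefore does not give the spread of the 12 S2WT arrays alone. Nothing in the labels says that replicates came from separate cultures, so the p-values measure only the spread between arrays of the series. In a ratio of bulk RNA, fewer cells of a type and less RNA per cell cannot be told apart.

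Few probes were called between late and early S2WT arrays, and their number depended on the fit. Of 8198 probes tested, 25 were called (0.305%), 17 higher (0.207%) and 8 lower (0.0976%). With the ratio read the other way these would be 8 higher and 17 lower with TGF-β, and every sign below would turn. The median change over all tested probes was 0.0189, and 729 probes had an unadjusted p under 0.05. Without centring, the median probe shifted to -0.157 and 18 probes were called, 3 higher and 15 lower, so the share of rises among the calls depends on the centring. The late and early arrays did not overlap for 15 of the 25 called probes (60%), against 112 of all 8198 tested (1.37%). Of the called probes, 19 carry a gene name and met the naming rule, 13 of them higher and 6 lower, and the other 6 have no gene in the annotation used.

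**Figure D1:**
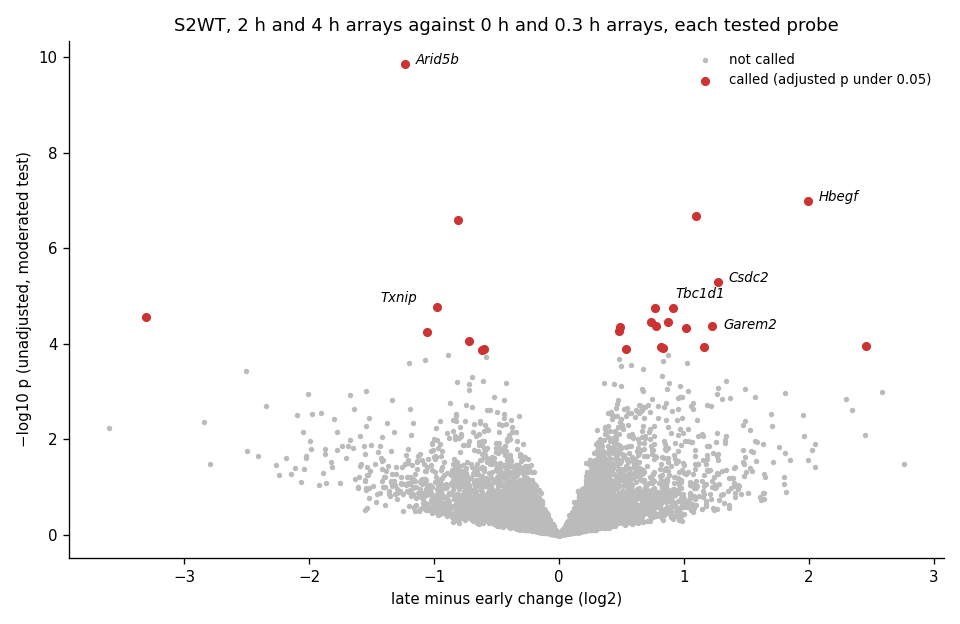
Late minus early change in S2WT (log2, horizontal axis) against −log10 of the unadjusted p (vertical axis) for each of the 8198 probes tested, with the 25 called probes in red and some gene names. Arid5b stands highest on the falling side with a change of -1.23, and Hbegf highest on the rising side with a change of 1.99.

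The rise with the smallest p was that of Hbegf, which encodes heparin-binding EGF-like growth factor, a ligand of the EGF receptor. Its centred log2 ratio was 0.10, 0.22 and 0.12 on the 0 h arrays and 0.41, 0.71 and -0.33 on the 0.3 h arrays. It was 1.51, 1.58 and 0.91 at 1 h, then 1.83, 1.87 and 1.82 on the arrays titled 2 h, and 2.44, 2.45 and 2.79 on those titled 4 h. Every late array lay above every early one. The late minus early change was 1.99 ± 0.32 (SE), a 3.98-fold rise, with an adjusted p of 0.000415 by limma. Hbegf was called in all 12 fits that left out 1 array, with an adjusted p of at most 0.00487. With the arrays titled 2 h alone as the late side its change was 1.63 with an adjusted p of 0.0994.

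Of the other 7 EGF receptor ligands, receptors and regulators measured, none was called, against 0.305% of all probes tested. At that share the lack of a call says nothing about these genes as a group. Spry1, an inhibitor of receptor kinase signalling, changed by -0.69 ± 0.25 (SE, adjusted p 0.302), and 0.3 h replicate 2 stood at 2.46 for it against 0.40 for the next early array. In this list of 8 genes, 2 had a positive change and the median was -0.177, against 0.0189 over all probes.

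The fall with the smallest p was that of Arid5b, which encodes a DNA-binding protein of the ARID family. Its centred log2 ratio was -0.04, -0.06 and 0.21 at 0 h, and 0.30, -0.07 and 0.14 at 0.3 h. The 1 h arrays gave -0.32, -0.32 and -0.65, below all early arrays. The arrays titled 2 h gave -1.49 and -1.22, with replicate 2 not measured, and those titled 4 h gave -1.06, -1.05 and -0.74. Every late array lay below every early and every 1 h array. The change was -1.23 ± 0.15 (SE, 5 late and 6 early arrays), a 2.35-fold fall, with an adjusted p of 1.16e-06 by limma. Arid5b was called in each of the 10 fits without 1 array in which it could be tested, with an adjusted p of at most 1.45e-05. It was also called under each of the 14 other settings run for it, with changes between -1.44 and -1.03.

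Csdc2, Garem2 and Hs6st1 had group means at 1 h that lay between the early and the late ones. Csdc2 encodes a cold-shock domain protein that binds RNA. Its centred log2 ratio was 0.10, 0.19 and -0.21 at 0 h and 0.76, 0.06 and 0.55 at 0.3 h, and at 1 h it was 1.90, 0.89 and 0.75. The late arrays gave 1.40, 1.10 and 1.28 at 2 h and 1.79, 1.63 and 1.89 at 4 h, all above the early arrays, and the change was 1.27 ± 0.25 (SE, adjusted p 0.00854). A second Csdc2 probe changed by 1.80 ± 0.94 (SE) and was not called, with an adjusted p of 0.601. Leaving out 0 h replicate 3 took the adjusted p of Csdc2 to 0.0507, and no other single array ended its call.

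Garem2, an adaptor that links growth factor receptors to the MAP kinase ERK, lay between 0.15 and 0.34 on the 6 early arrays. It reached 1.54, 0.98 and 1.36 at 2 h and 1.77, 1.83 and 1.28 at 4 h, with no overlap, and its change was 1.22 ± 0.27 (SE, adjusted p 0.0258). Hs6st1 adds sulfate to heparan sulfate, the glycosaminoglycan that HB-EGF binds. Its late arrays lay close together, between 0.84 and 1.02, against -0.06 to 0.53 early, and its change was 0.78 ± 0.17 (SE, adjusted p 0.0258). Another Hs6st1 probe changed by -0.18 ± 0.65 (SE) and was not called. At 1 h Hs6st1 stood at 0.64, 0.52 and 0.64, and Garem2 at 0.99 and 0.58, with 1 array not measured.

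Ldlrad4, Tbc1d1, Creb3l2 and Fhl2 had 1 h means closer to their early than to their late means. Ldlrad4 encodes a membrane protein that binds Smad2 and Smad3 and damps TGF-β signalling. It stood at 0.11, 0.10 and 0.25 at 1 h, within the early range of -0.68 to 0.36, and at 0.81 to 1.27 on the late arrays. Its change was 1.16 ± 0.28 (SE, adjusted p 0.0444). A second Ldlrad4 probe changed by -0.12 ± 0.81 (SE) and was not called. Tbc1d1, a Rab GTPase-activating protein of glucose transporter traffic, lay between -0.33 and 0.04 early and between 0.38 and 1.11 late. Its 1 h arrays gave -0.11, 0.21 and 0.38, so 2 of them lay above every early array. Its change was 0.91 ± 0.19 (SE, adjusted p 0.0187), and leaving out 0 h replicate 3 took the adjusted p to 0.0685.

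Creb3l2 encodes a transcription factor held in the endoplasmic reticulum membrane until it is cleaved. Its 1 h arrays were far apart, at -0.69, 0.07 and 0.64, with 1 below the early range of -0.23 to 0.01 and 1 within the late range. It was 0.61, 0.74 and 0.74 at 2 h and 0.94, 1.10 and 0.73 at 4 h, all above the early range. Its change was 0.87 ± 0.19 (SE, adjusted p 0.0258), and leaving out either 0 h replicate 3 or 0.3 h replicate 3 ended the call, with an adjusted p of at most 0.0685. Of its other 2 probes, 1 changed by 0.67 (adjusted p 0.0789) and 1 by 0.31 (adjusted p 0.963). Fhl2, a LIM-domain protein that shuttles between adhesion sites and the nucleus, was at 0.23, 0.46 and 0.38 at 1 h. The late values were 1.07, 0.75 and 0.86 (2 h), then 1.34, 1.51 and 1.53 (4 h), against 0.17 to 0.57 early. Its change was 0.82 ± 0.20 (SE, adjusted p 0.0444), which was called in 2 of the 12 fits without 1 array.

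**Figure D2:**
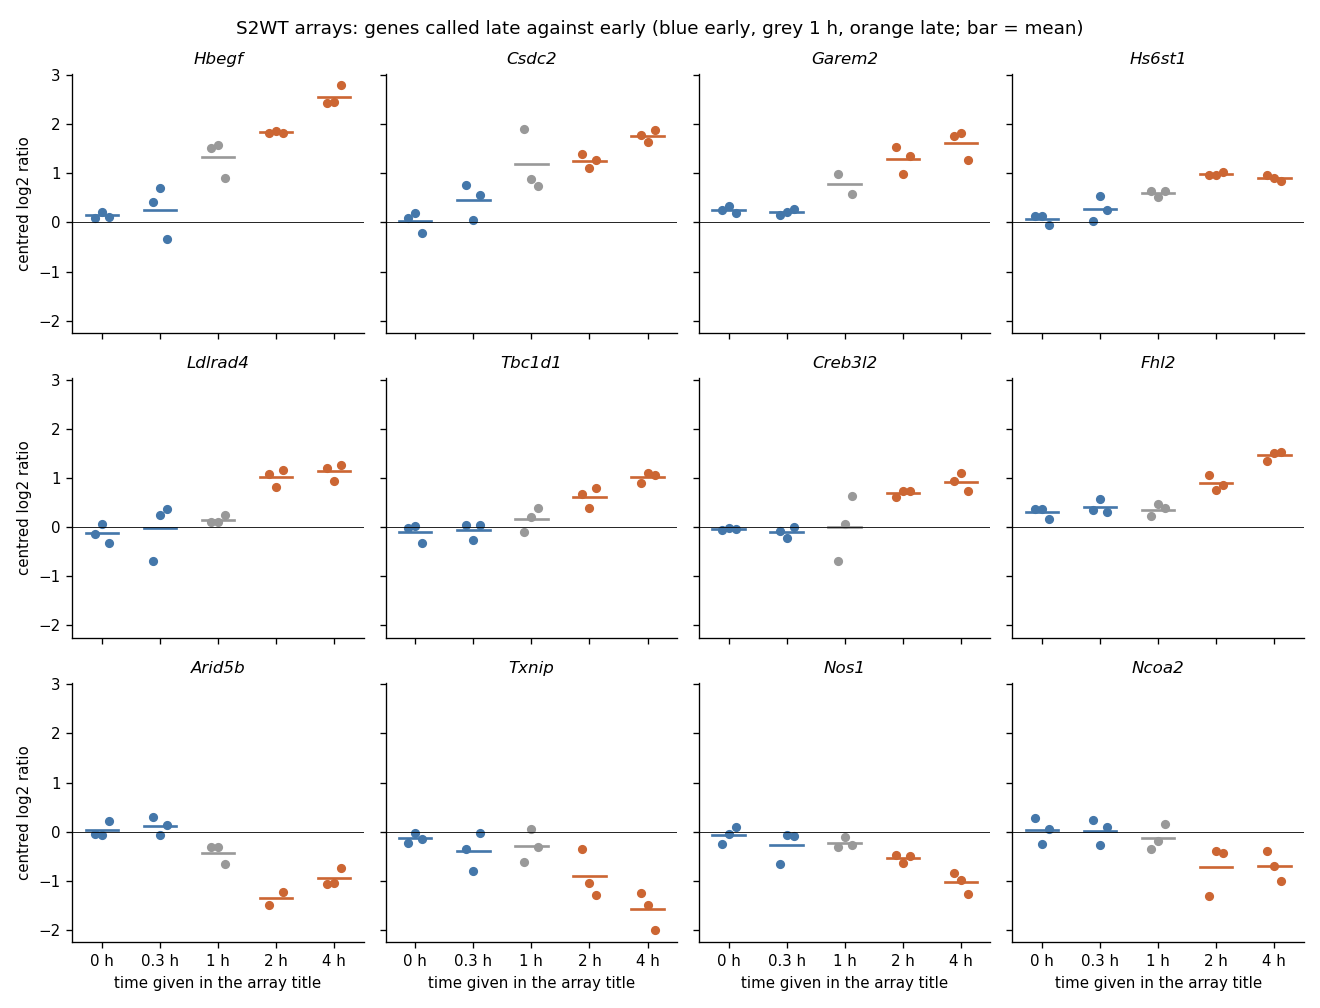
Centred log2 ratio (vertical axis) on each S2WT array by the time in its title (horizontal axis) for 8 genes that rose and 4 that fell, with early arrays in blue, 1 h arrays in grey and late arrays in orange, and bars at group means. Hbegf, Csdc2, Garem2, Hs6st1 and Arid5b had moved from their 0 h mean at 1 h, while the 1 h means of Ldlrad4, Tbc1d1, Creb3l2 and Fhl2 lay closer to their early than to their late means, with the 1 h arrays of Creb3l2 spread from -0.69 to 0.64.

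Another 5 genes were called higher. Nmt1, which attaches myristate to proteins, changed by 0.48 ± 0.11 (SE, adjusted p 0.0271), with no overlap between 0.40 to 0.73 late and -0.23 to 0.39 early. Msantd3 changed by 0.49 ± 0.11 (SE, adjusted p 0.0258) and its late range of 0.50 to 0.91 overlapped the early one by 1 early array at 0.53. Derl1, a protein of endoplasmic reticulum-associated degradation, changed by 0.54 ± 0.13 (SE, adjusted p 0.0444). Its 0.3 h arrays, at 0.31, 0.49 and 0.15, already lay above its 0 h arrays, at -0.76, -0.23 and -0.12. With the 0.3 h arrays alone as the early side, its change was 0.19 and it was not called.

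Foxo1 and Anxa5 each held 1 array far from the others. Foxo1, a transcription factor of growth arrest and metabolism, changed by 1.01 ± 0.23 (SE, adjusted p 0.0259). Its early arrays held 1 value of -1.79, at 0 h replicate 2, beside 0.07, 0.49, 0.61 and 0.41, and 0 h replicate 3 had no value, so a fit without replicate 2 could not be tested. Of its other 2 probes, 1 changed by 0.41 (adjusted p 0.961) and 1, with too few arrays for the test, by -1.60. Against the 0.3 h arrays alone, which do not include that value, its change was 0.33. Anxa5, which binds phosphatidylserine, changed by 0.83 ± 0.20 (SE, adjusted p 0.0444) with 4 h replicate 1 at 2.51 and the other late arrays between -0.01 and 0.73. Without 4 h replicate 1 its change was 0.48, and it was not called. In a fit of the 12 S2WT arrays alone, the adjusted p by limma was 0.462 for Foxo1 and 0.616 for Anxa5.

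Of the 5 falls besides Arid5b, those of Txnip, Nos1 and Dzip1 had their lowest means at 4 h. Txnip encodes an inhibitor of thioredoxin that also limits glucose uptake. It stood at -0.36, -1.04 and -1.28 at 2 h and at -1.24, -1.49 and -2.01 at 4 h, against -0.80 to -0.02 early, so 1 late array overlapped the early ones. Its change was -0.98 ± 0.21 (SE, adjusted p 0.0187), and a second Txnip probe changed by -0.38 ± 0.35 (SE, adjusted p 0.875). Nos1, neuronal nitric oxide synthase, averaged -0.53 at 2 h and -1.03 at 4 h, and its change was -0.61 ± 0.15 (SE, adjusted p 0.0444). The sides overlapped, as 0.3 h replicate 1 at -0.66 lay below all arrays titled 2 h. Nos1 was called in 2 of the 12 fits without 1 array. Ncoa2, a coactivator of nuclear receptors, changed by -0.73 ± 0.17 (SE, adjusted p 0.0394) with no overlap between -1.31 to -0.39 late and -0.28 to 0.28 early. It was called in 5 of the 12 fits without 1 array.

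Slc39a10, a zinc importer, changed by -0.60 ± 0.15 (SE, adjusted p 0.0444) with overlap of the sides. Dzip1, a protein of the ciliary base, changed by -1.06 ± 0.24 (SE, adjusted p 0.0271) over 5 late and 5 early arrays. Its early arrays ran from -0.05 to 1.72, with the highest at 0 h replicate 3, and without the 0 h arrays its change was -0.76 and it was not called. Among the called probes with no gene name, probe 7737 rose by 1.10 ± 0.18 (SE, adjusted p 0.000518) and probe 7712 fell by 0.81 on the log2 scale (adjusted p 0.000518). Both were called in all 12 fits without 1 array.

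Many of the calls depended on single arrays. Of the 12 fits without 1 array, Hs6st1 was called in 7, and Garem2, Nmt1 and Msantd3 in 6 each. Slc39a10 was called in 5 of them, Ldlrad4 in 4, and Derl1 and Anxa5 in 3 each. Without 0 h replicate 3 there were 4 calls and 16 of the 18 named genes that could be tested lost theirs, and without 0.3 h replicate 3 there were 8 calls and 15 of 19 lost theirs. Without 2 h replicate 1 there were 11 calls, and without 0 h replicate 1 there were 16. Leaving out 0.3 h replicate 2 raised the number to 44, of which 20 were among the 25. The median absolute deviation of the array values was 0.282 on 0 h replicate 3, the lowest of the 12, and 0.681 on 0.3 h replicate 2, the highest, and the part of this spread in the counts was not tested. In a fit of the 12 arrays alone, 9 probes were called and 8 of them were among the 25: Hbegf, Csdc2, Garem2, Tbc1d1, Creb3l2, Fhl2, Arid5b and probe 7737.

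Of the 16 genes measured that TGF-β is known to induce, Hbegf alone was called, against 0.305% of all probes tested. The list was chosen with earlier results known, so that count is no result about it. The direction of the ratio was read from this list, so the 15 positive changes and the median of 0.426, against 0.0189 over all probes, describe that choice and are no result about the list. Without centring, 13 of the 16 were positive with a median of 0.253, against -0.157 over all probes. A gene on several probes is given here by the probe with the smallest p.

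Some of these genes had a higher mean at 0.3 h than at 0 h, within the early side itself, though none of these differences was called. The 0.3 h minus 0 h difference was 0.66 ± 0.36 (SE) for Snai1 and 0.35 ± 0.46 (SE) for Ier2. Gadd45b, a stress sensor that activates p38 signalling, stood at 0.21, 0.65 and 0.21 at 0 h and at 1.31, 1.81 and 1.05 at 0.3 h. It then stayed between 1.66 and 1.88 on the 6 late arrays, which overlapped the highest 0.3 h array. Its late minus early change was 0.86 ± 0.28 (SE, adjusted p 0.235). Against the 0 h arrays alone the change was 1.37 (adjusted p 0.0569), and against the 0.3 h arrays alone it was 0.34 (adjusted p 1). The 0.3 h minus 0 h difference itself was 1.03 ± 0.40 (SE, adjusted p 0.579).

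Snai1, a repressor of E-cadherin, gave -0.47, 0.65 and 0.37 at 0 h and 0.90, 1.03 and 0.60 at 0.3 h. Its 1 h arrays, at 1.93, 1.62 and 1.90, lay above all of its late arrays, at 1.07 to 1.33. The late minus early change was 0.69 ± 0.25 (SE, adjusted p 0.338), although the sides did not overlap. Klf10, a zinc-finger repressor known as TGF-β-inducible early gene, had means of 0.01 (0 h), 0.41 (0.3 h), 0.71 (1 h), 0.13 (2 h) and 0.36 (4 h). Its late minus early change was 0.03 ± 0.22 (SE, adjusted p 0.995), and without centring it was -0.14. Ier2, an immediate-early transcription regulator, was at 0.58, 0.53 and 0.10 at 0 h and at 0.94, 0.96 and 0.38 at 0.3 h. It stood at 1.32 to 1.82 on the late arrays, above all early ones, and its change was 0.99 ± 0.32 (SE, adjusted p 0.23).

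Others stood near 0 on all early arrays and were higher late without passing the test. Bhlhe40, a repressor with a helix-loop-helix domain, lay between -0.26 and 0.06 early and between 0.15 and 0.93 late, with a change of 0.79 ± 0.24 (SE, adjusted p 0.193). Ccn1, a matrix-associated signalling protein, lay between -0.30 and 0.19 early and between 0.60 and 1.43 late, with a change of 1.03 ± 0.39 (SE, adjusted p 0.351). Neither gene overlapped between the sides. The fits of the 15 S2WT arrays alone called Ccn1 (adjusted p 0.0296), Ier2 (adjusted p 0.0296), Myc (adjusted p 0.038) and Gadd45b (adjusted p 0.0499).

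**Figure D3:**
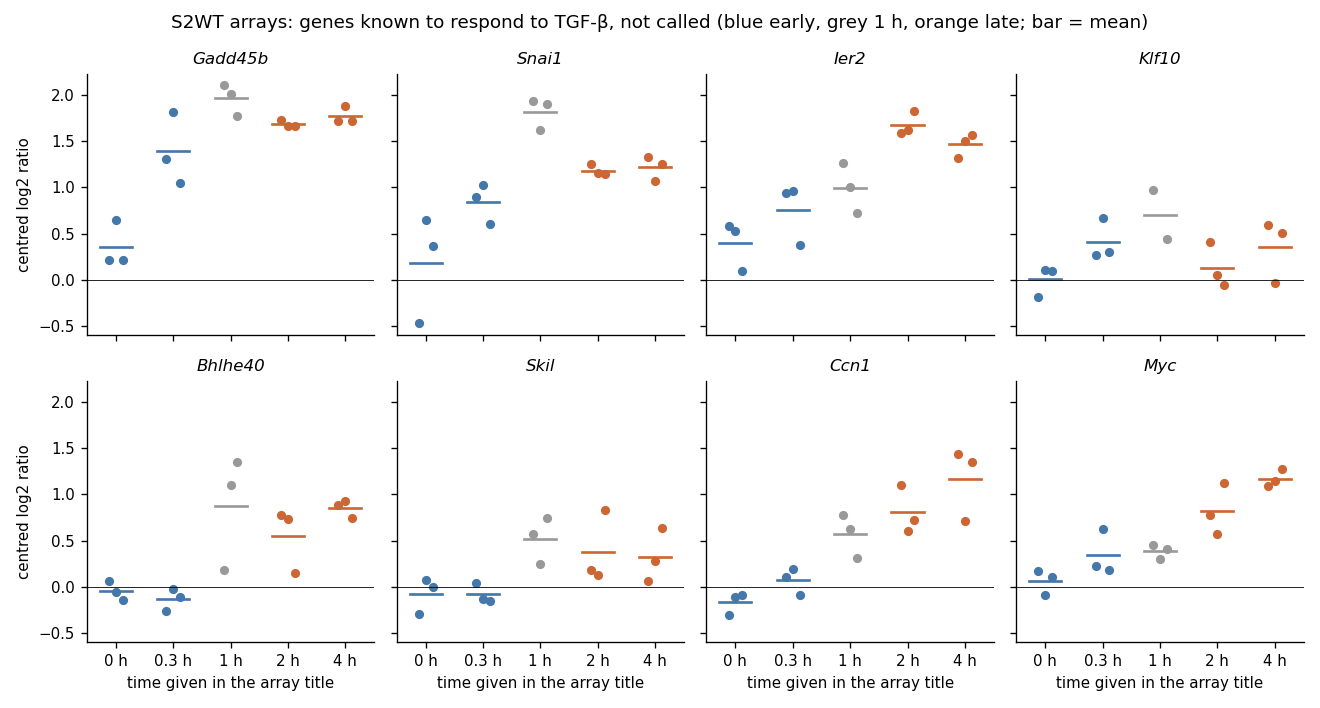
Centred log2 ratio (vertical axis) on each S2WT array by the time in its title (horizontal axis) for 8 genes known to respond to TGF-β or to growth stimulation that were not called, with early arrays in blue, 1 h in grey, late in orange and bars at group means. Gadd45b averaged 1.39 and Snai1 0.84 already at 0.3 h, while Bhlhe40, Skil and Ccn1 stood near 0 then.

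The lists that follow are small beside the share called over all probes, 0.305%, at which less than 1 call would fall in any of them, so a list with no call says nothing about its genes as a group. Over all probes 52.5% had a positive change. Without centring, the median over all probes was -0.157, and the values of the lists without centring stand against that median. Of 22 receptors, Smads and regulators of the pathway, none was called, 16 had a positive change and the median was 0.0707. Tgfbr3, the co-receptor betaglycan, had the smallest p. It stood between -0.84 and 0.16 early, averaged -0.67 at 2 h and -1.44 at 4 h, and changed by -0.89 ± 0.22 (SE, adjusted p 0.0537). All 3 of its probes were negative, with the other 2 at -0.74 and -0.65, and without centring it was called with a change of -1.06 (adjusted p 0.0188). With the 4 h arrays alone as the late side it was also called, at -1.27 (adjusted p 0.0133).

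The ubiquitin ligases of Smads and receptors, Smurf1 and Smurf2, changed by 0.58 ± 0.15 (SE, adjusted p 0.067) and 0.36 ± 0.10 (SE, adjusted p 0.121). Smurf1 averaged 0.78 at 2 h and 1.14 at 4 h, and 2 other Smurf2 probes stood at -0.09 and -0.02. Skil, a repressor of Smads, changed by 0.43 ± 0.21 (SE, adjusted p 0.528) and Smad7, the inhibitory Smad, by 0.27 ± 0.20 (SE, adjusted p 0.777). The Smad3 probe with the smallest p changed by 0.66 ± 0.58 (SE, adjusted p 0.871) over 4 late and 5 early arrays, and the other 2 Smad3 probes were at -0.08 and -0.28. Without centring, 10 of the 22 pathway genes were positive, with a median of -0.104.

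Of 14 immediate-early and AP-1 genes, 12 were positive with a median of 0.573 and none was called. Without centring the median was 0.439, with 10 positive. Myc changed by 0.79 ± 0.26 (SE, adjusted p 0.23) and averaged 0.83 at 2 h and 1.17 at 4 h, against 0.34 at 0.3 h. Ier5 changed by 0.65 ± 0.31 (SE, adjusted p 0.528). Of 8 Id and other helix-loop-helix regulators, 1 had a positive change, Bhlhe40, the median was -0.432, and none was called. Id4, an inhibitor of differentiation factors, averaged 0.00 at 2 h and -0.58 at 4 h and changed by -0.66 ± 0.46 (SE, adjusted p 0.753). Twist1 changed by -0.27 ± 0.13 (SE, adjusted p 0.518), and Hes1 by -0.82 ± 0.80 (SE, adjusted p 0.89). A second Twist1 probe changed the other way, by 0.11.

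The actin, contractile and adhesion list held 14 genes, with 11 positive, a median of 0.212 and no call. Without centring 8 were positive and the median was 0.0309. Its smallest p was that of the integrin subunit Itgb1, at 0.67 ± 0.19 (SE, adjusted p 0.143), followed by Itga5, the fibronectin receptor subunit, at 0.73 ± 0.23 (SE, adjusted p 0.209). A second Itgb1 probe changed by 0.06. Of 15 matrix and protease genes none was called, 11 were positive and the median was 0.146, led by the collagen cross-linking enzyme Lox at 0.33 ± 0.14 (SE, adjusted p 0.423) and Mmp2 at 0.26 ± 0.17 (SE, adjusted p 0.711). A second Mmp2 probe changed by -0.04. Without centring, 5 of the 15 matrix and protease genes were positive.

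Of 22 genes of G1 and S phase 10 were positive (median -0.061), and of 12 genes of G2 and mitosis 5 were (median -0.173), with no call. Without centring 7 and 2 were positive, with medians of -0.235 and -0.348. The transcription factor E2f4 led the first at 0.97 ± 0.28 (SE, adjusted p 0.166), with 4 h replicate 3 at 2.61 and the next late array at 0.61. Its other 2 probes changed by 0.29 (adjusted p 0.866) and 0.06 (adjusted p 0.985). Mad2l1 and Kif20a led the genes of G2 and mitosis at -1.40 ± 0.73 (SE, adjusted p 0.601) and -0.50 ± 0.26 (SE, adjusted p 0.601). A second Mad2l1 probe changed by -0.36. Of 16 growth arrest and apoptosis genes, Foxo1 rose and Txnip fell, 8 were positive and the median was 0.0119.

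The lists with the least tie to TGF-β serve as a background. Of 17 ribosomal protein genes 8 were positive, with a median of -0.000917. Without centring 4 were positive (median -0.175), and with the 0 h arrays as the early side 14 were (median 0.12). Of 12 interferon response genes 3 were positive, with a median of -0.107, and Rsad2 changed by -1.14 ± 0.69 (SE, adjusted p 0.679) with 2 h replicate 3 at -4.48. A second Rsad2 probe changed by -0.15. The cholesterol synthesis list also holds the fatty acid genes Scd1 and Fasn. Of its 10 genes 9 were positive, with a median of 0.0788, and without centring 2 were. Scd1 had the smallest p there, at -0.44 ± 0.14 (SE, adjusted p 0.21), and Sqle was at 0.24 ± 0.34 (SE, adjusted p 0.946). None of these genes was called. Markers of fibroblast, epithelial, endothelial, leukocyte and muscle cells gave no call either, with 3, 3, 5, 5 and 3 genes tested, and as ratios they show changes and not which cells were present.

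**Figure D4:**
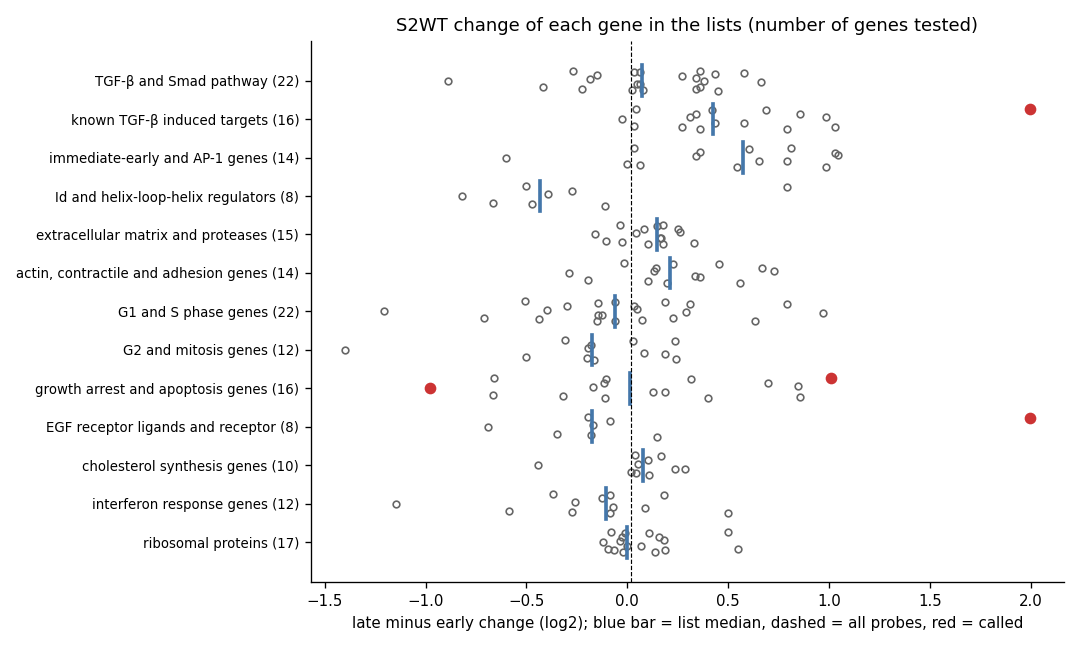
Late minus early change in S2WT (log2, horizontal axis) of each gene in 13 lists (rows, with the number tested), with called genes as red points, list medians as blue bars and the median of all probes, 0.0189, as a dashed line. The medians run from -0.432 for the Id and helix-loop-helix genes to 0.573 for the immediate-early genes. The sign of all values was read from the induced targets (0.426), which share members with the immediate-early list.

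Within the late side, no probe was called between the arrays titled 4 h and those titled 2 h, 0 of 8593 tested (0%), and 385 had an unadjusted p under 0.05. Hbegf was 0.72 ± 0.46 (SE) higher on the arrays titled 4 h, Fhl2 0.57 ± 0.28 (SE) higher and Txnip 0.68 lower. None of these differences was called, and for Txnip the adjusted p was 0.935. The pairs of a 2 h and a 4 h array shared between 3 and 14 identical values of 7783 to 8155 measured on both, so the sets are not copies of each other. The smallest p belonged to Crnde at -3.09 ± 0.63 (SE, adjusted p 0.0991). Leaving out 2 h replicate 3 gave 29 calls, 2 h replicate 1 gave 8, 4 h replicate 1 gave 5, 4 h replicate 3 gave 3 and 4 h replicate 2 gave 2. With the arrays titled 4 h alone as the late side 43 probes were called, and with those titled 2 h alone 2 were.

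Within the early side, no probe was called between 0.3 h and 0 h, 0 of 8450 (0%), and 520 had an unadjusted p under 0.05. The 3 smallest p belonged to Aass at -2.35 ± 0.48 (SE), Ncald at 2.43 ± 0.53 (SE) and Cnih4 at 1.73 ± 0.38 (SE), each with an adjusted p of 0.0842. Leaving out 1 array gave between 1 and 21 calls. Dropping a 0.3 h array gave 21 (replicate 1), 21 (replicate 2) or 19 (replicate 3), and dropping a 0 h array gave 4, 17 or 1 in the same order.

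The same genes were read in the other sets of arrays, each against its own early arrays. Of the 25 S2WT probes, 21 had the same direction in S3WT, and 2 of them were called in S3WT, where 4 of 8290 probes were called (0.0483%). In S2KO 22 of 25 had the same direction and 13 were called, against 139 of 8103 probes (1.72%). In the U0126 arrays 21 of 24 had the same direction and 7 were called, against 53 of 8227 (0.644%). In S3KO 21 of 24 had the same direction and none was called, as for all 8068 probes (0%), of which 549 had an unadjusted p under 0.05. Over all probes, 53.2% to 56.2% had the same direction in S2WT and another line, and 58.2% in S2WT and the U0126 set.

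The median change of the 17 rises was 0.952 in S2KO, 0.415 in S3WT and 0.176 in S3KO, and that of the 16 tested with U0126 was 0.598. The median of the 8 falls was -0.388 in S2KO, -0.264 with U0126 and -0.246 in S3WT, and that of the 7 tested in S3KO was -0.133. These medians are descriptions, and the tests of the differences follow. Hbegf changed by 2.73 ± 0.32 (SE) in S2KO, 1.36 in S3WT, 1.36 with U0126 and 0.43 ± 0.32 (SE) in S3KO. The 2 probes called in both S2WT and S3WT were those of Csdc2 and Creb3l2, and Creb3l2 was called with U0126 and in S2KO as well. Txnip fell by 1.5 on the log2 scale in S2KO and by 1.34 with U0126, both called, and its value was -0.17 ± 0.21 (SE) in S3WT. Anxa5 and Derl1 were between -0.12 and 0.15 in the 4 other sets.

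A difference between S2WT and another set of arrays passed the test for 1 probe. The Arid5b change in S2WT was lower than that in S3KO by 1.15 ± 0.21 (SE, adjusted p 0.0116), 1 of 7609 probes (0.0131%), and the value in S3KO was -0.09 ± 0.14 (SE). With U0126 Arid5b fell by 1.17 on the log2 scale, in S2KO by 0.59, and in S3WT its value was -0.48. With the arrays scaled to a common spread the S3KO difference was not called, and without S2WT 2 h replicate 1 or replicate 3 it could not be tested. For S3WT 0 of 7756 probes were called (0%), with 384 at an unadjusted p under 0.05, for S2KO 0 of 7628 (0%) with 655, and for U0126 0 of 7740 (0%) with 428. Leaving out S2KO 4 h replicate 2 gave 29 calls against S2KO, leaving out S2WT 0.3 h replicate 2 gave 9, and no other single array gave over 7.

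The nearest to a call against S2KO was Slc39a10, which changed by -0.60 in S2WT and 0.37 in S2KO, a difference of -0.97 ± 0.21 (SE, adjusted p 0.0532). Hbegf differed by 1.56 ± 0.46 (SE) between S2WT and S3KO, and Csdc2 by 1.34 ± 0.35 (SE), with adjusted p of 0.699 and 0.462. The S2WT calls that are absent from S3KO are therefore not shown to differ between the lines, Arid5b excepted.

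**Figure D5:**
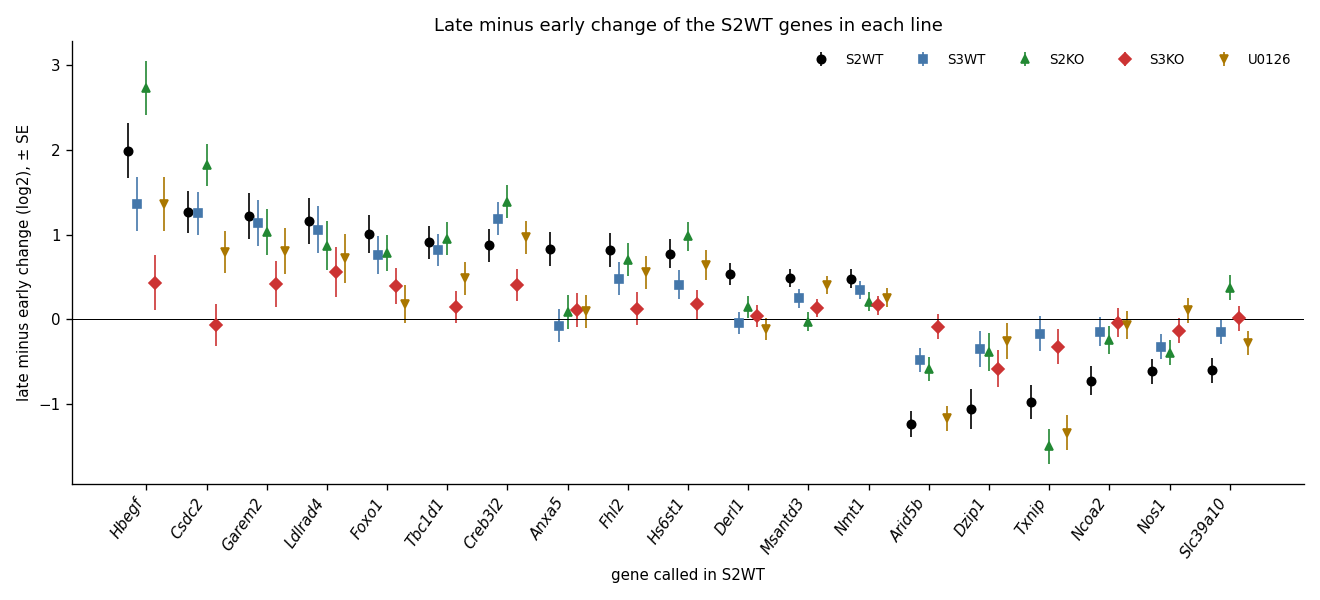
Late minus early change (log2, vertical axis) ± SE of the 19 genes called and named in S2WT (horizontal axis) in each of 5 sets of arrays, each against its own early arrays. The S3KO points lie nearest to 0 for Hbegf, at 0.43, and for Arid5b, at -0.09.

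The bases before the gene start were read for the named genes that have a promoter entry in RefSeq (GRCm38.p6), 9 of the 13 that rose and 5 of the 6 that fell, over 250 bases. The core Smad box CAGAC, on either strand, was present for 2 of the 9 rising genes (22.2%), Tbc1d1 and Anxa5, and for none of the 5 falling genes. It was present for 39.3% of the 4697 array genes with an entry. The longer form CAGACA, which contains the core, was present for 1 of 9, against 13.5%. None of the 14 windows held AGCCAGACA (0.298% of all), the AP-1 motif TGANTCA (4.19%) or the cAMP response element TGACGTCA (2.68%), and the E-box CACGTG was present for Garem2 alone (8.15% of all). A match is a run of letters and not a bound site.

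The windows of 3 genes are shown because their RefSeq entry starts at the outermost annotated start of the gene and because together they show the motif matches and their absence: a rising gene with an E-box, a rising gene with a pair of Smad box cores, and a falling gene with neither. They lie at chr5:30104946-30105195 on the plus strand (Garem2), chr3:36475888-36476137 on the minus strand (Anxa5) and chr3:96557707-96557956 on the plus strand (Txnip), each upstream of its gene and read 5′ to 3′ along the gene's strand. Capitals mark CACGTG in Garem2 and CAGAC, or its reverse complement GTCTG, in Anxa5.
Garem2: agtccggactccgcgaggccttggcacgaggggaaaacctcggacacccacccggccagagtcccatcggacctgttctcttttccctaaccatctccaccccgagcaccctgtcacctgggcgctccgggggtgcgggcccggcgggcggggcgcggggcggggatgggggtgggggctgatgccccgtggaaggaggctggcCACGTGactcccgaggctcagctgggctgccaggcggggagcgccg
Anxa5: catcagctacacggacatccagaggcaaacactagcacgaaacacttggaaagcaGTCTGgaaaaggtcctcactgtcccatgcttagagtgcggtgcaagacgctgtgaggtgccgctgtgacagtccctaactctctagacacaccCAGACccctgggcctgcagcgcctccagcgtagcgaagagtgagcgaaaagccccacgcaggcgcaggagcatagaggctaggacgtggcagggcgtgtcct
Txnip: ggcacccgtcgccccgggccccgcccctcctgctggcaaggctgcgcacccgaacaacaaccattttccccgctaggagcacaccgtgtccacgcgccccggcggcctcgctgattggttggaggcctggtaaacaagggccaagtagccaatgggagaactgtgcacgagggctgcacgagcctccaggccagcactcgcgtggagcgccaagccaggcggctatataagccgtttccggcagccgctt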

How the data were processed

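The authors deposited 1 log2 ratio per probe and array. The ratios' upstream steps were not given in the sources used here, dyes and normalisation included. Values above 16.6 (194 on the 12 arrays, all 16.61) were read as empty denominators and set to missing, and each array was centred on its median. Least squares on 25 group means over 74 arrays (R 4.3.3) gave the differences, with variances moderated by squeezeVar of limma 3.58.1 (49 residual degrees of freedom for a complete probe). A probe needed 2 arrays in each group of a contrast. P-values were adjusted by Benjamini-Hochberg over all probes tested, and 0.05 was the threshold. The code was tested on simulated data.

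Genes were named by rule: among called probes with 1 gene symbol and all late arrays on 1 side of the early mean, the largest rises and falls. Up to 4 members of each list with the smallest p were also named, and a fixed set of TGF-β genes. Members and lists were chosen with earlier results of these data known. Symbols come from the platform annotation, which gives 7348 probes a single symbol, updated by gene ID for 7274 of them to RefSeq (GRCm38.p6). The labels name no slide or scan batch. Same-numbered S2WT arrays of different times correlated between -0.089 and 0.20 in their deviations from group means, with 11 of 30 pairs over 0.1 against 4 of 60 pairs of different numbers. Same-numbered pairs were thus over 0.1 more often, though not all of them were. These pairs include the 1 h arrays. Among the 12 arrays compared, 4 of 18 same-numbered pairs were over 0.1, with correlations from -0.089 to 0.17. The main fit used no pairing by number, and a fit with the number as a block was an alternative. Alternatives were the centring, the scaling, the arrays fitted, each time of a side alone, array weights, missing values, probe averaging and leaving out each array.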

Additional observations from a re-analysis of the deposited data

Results flagged for a closer look

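Single arrays stood apart from the others of their side in 12 of 100 sets of values looked at for 50 genes, by Dixon's 95% criterion. Values of a single normal distribution pass it in about 1 of 20. Each set here pools arrays of different times and the genes share arrays, so the 12 of 100 cannot be set against that rate. Among called genes, Foxo1 had 0 h replicate 2 at -1.79 with the next early array at 0.07, Creb3l2 had 0.3 h replicate 2 at -0.23 with the next at -0.08, and Anxa5 had 4 h replicate 1 at 2.51 with the next late array at 0.73. Among genes not called, Gadd45b had 4 h replicate 2 at 1.88 (next 1.73), Bhlhe40 had 2 h replicate 3 at 0.15 (next 0.73), and Smad7 had 0.3 h replicate 2 at 0.74 (next 0.16). Smurf2 had 0 h replicate 3 at 0.30 (next -0.04), E2f4 had 4 h replicate 3 at 2.61 (next 0.61), and Mad2l1 had 0 h replicate 2 at 2.25 (next 0.20). Spry1 had 4 h replicate 2 at 0.73 (next -0.06) and 0.3 h replicate 2 at 2.46 (next 0.40), and Rsad2 had 2 h replicate 3 at -4.48 (next 0.01). Of the differences between lines, that of Arid5b between S2WT and S3KO passed the test, at -1.15 on the log2 scale.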

How the results depend on the processing

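Against 25 called probes late minus early, the count was 5 with the arrays scaled to a common spread, 9 and 16 with the 12 or 15 S2WT arrays alone, and 14 with late and early as 1 group each. It was 14 with the 0 h and 12 with the 0.3 h arrays as the early side, 2 with the arrays titled 2 h and 43 with those titled 4 h as the late side. It was 101 with arrays weighted by quality, whose estimation stopped before its tolerance was reached. Leaving out 1 array gave 4 to 44. Of the S2WT arrays, 11 of 15 correlated best with an array of their own number, so the correlations do not show that samples were unpaired. The main fit does not model a pairing. With the replicate number as a block there were 43 calls late minus early, all 25 among them. The block also gave 2 calls for 4 h minus 2 h, 3 for 0.3 h minus 0 h, and 5 for S2WT minus S2KO. Scaling gave 6 calls for 0.3 h minus 0 h and 0 for S2WT minus S3KO, where the arrays of both lines alone gave 2. Without centring S2WT minus S2KO had 9 calls. Leaving out 1 array gave 0 to 29 calls for 4 h minus 2 h, 1 to 21 for 0.3 h minus 0 h, 0 to 1 against S3WT, 0 to 29 against S2KO, 0 to 3 against S3KO and 0 to 1 against U0126. The causes were not tested. Single genes that turned sign were Klf10 (-0.14 not centred, -0.01 scaled, -0.17 against 0.3 h, -0.08 for 2 h, and -0.03 to 0.13 without 1 array), Sqle (-0.07 for 2 h) and Smad3 (-0.03 with probes averaged).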
